A study of Rattus norvegicus with 54 samples.

Results

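The infarct zone and the remote zone of untreated infarcted rat hearts were compared by RNA sequencing, with both zones taken from the same 6 hearts. These 12 libraries were chosen by their labels from the 54 of the series, which hold 3 zones of 18 hearts. All hearts came from female F344/NJcl-rnu/rnu rats, an athymic strain that lacks mature T cells, operated at 8 weeks of age and sampled 1 week after surgery. In the MI group the left anterior descending artery was ligated and nothing else was given. The infarct zone was the anterior left ventricle, the border zone the lateral wall and the remote zone the septum. The sham group had a sham operation, and the same 3 positions were sampled. In the cell sheet group, ligated hearts received a sheet of human smooth muscle cells and endothelial progenitor cells. Zones were cut by position, so a block of infarct tissue could hold surviving muscle, and the ligation defines a single model of permanent occlusion at a single time.

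After a coronary artery is closed, the heart muscle it supplied dies, inflammatory cells clear the debris and fibroblasts become myofibroblasts that lay down collagen. Adult cardiomyocytes depend on oxidation of fatty acids in mitochondria, and they scarcely divide, so dead muscle is replaced by scar. The septum lies outside the territory of the ligated artery and keeps its muscle, which makes it the usual internal comparison for the anterior wall.

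Gene-assigned counts ranged from 18821474 to 22459805 in the infarct libraries and from 12963330 to 17049549 in the remote libraries, and the 2 ranges did not overlap (infarct higher in 6 of 6 hearts, exact two-sided sign-flip test, p = 0.0312, the smallest p that 6 hearts allow). Reads counted in no gene feature took 11.9 to 26.2% of the infarct libraries and 24.1 to 35.3% of the remote libraries. This share was lower in the infarct zone in 6 of 6 hearts (exact two-sided sign-flip test, p = 0.0312). In sham hearts the gene-assigned counts were lower at the infarct position than in the septum in 6 of 6 hearts. After all libraries were thinned to the depth of the shallowest, 5686 genes were called in place of 5784, and the part of the unassigned reads in the results was not tested. The infarct libraries differed widely: the mean level of cardiomyocyte genes on the log2(CPM + 0.1) scale was highest in heart 1, at 10.86, against 7.37 to 10.27 in the other 5 infarct libraries and 10.52 to 11.21 in the remote libraries. CPM is a gene's count scaled to the gene-assigned total of its library, with TMM factors between libraries.

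Of 15901 genes tested, 5784 (36.4%) passed an adjusted p of 0.05 in edgeR's quasi-likelihood test with the heart as a block. The infarct zone was higher for 2912 genes (18.3% of those tested) and lower for 2872 genes (18.1%). The median size of the log2 fold change among the called genes was 0.75, and 1958 of them changed by more than 1 on the log2 scale, 850 upward and 1108 downward. Without TMM factors the split was 3914 higher and 2278 lower, and the median over all tested genes then stood at 0.13 in place of 0.03. The infarct and remote libraries did not overlap for 1143 of the tested genes (7.19%), 601 higher and 542 lower in the infarct zone. The direction was the same in all 6 hearts for 4770 of the called genes (82.5%). Over the called genes, the median log2 difference in the called direction was 0.35 in heart 1 and 1.29 in heart 2, with the other 4 hearts between 0.54 and 0.83. The count fell to 3236 without heart 4 and to 3344 without heart 6.

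**Figure D1:**
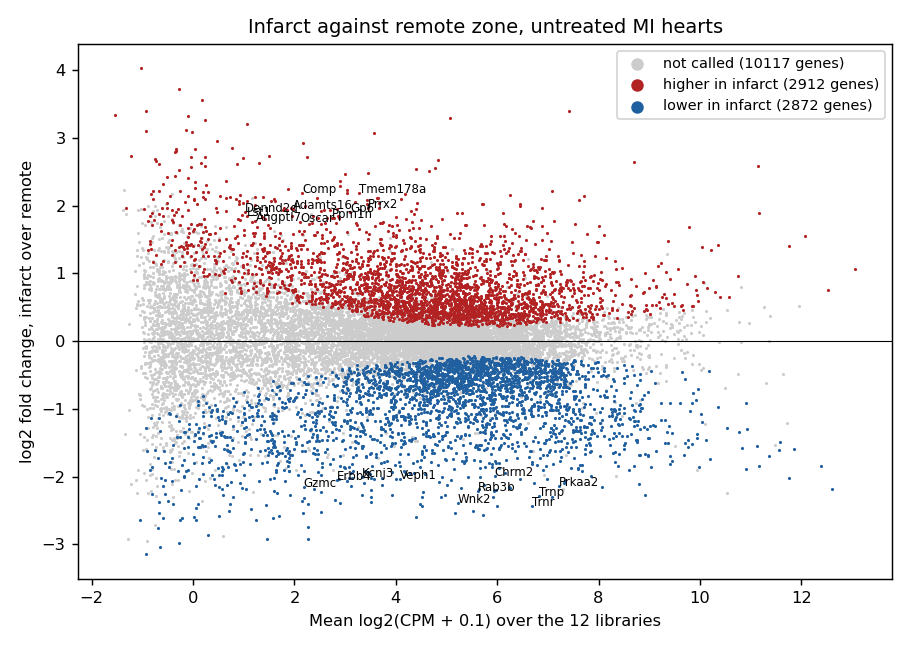
Log2 fold change of infarct over remote against the mean log2(CPM + 0.1) over the 12 libraries, for each of 15901 genes; red points are the 2912 genes called higher in the infarct zone, blue points the 2872 called lower and grey points the rest. The names are the 10 largest rises and 10 largest falls chosen by the rule for named genes, and the called genes spread about evenly above and below 0.

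Sham hearts also differed between the same positions. In sham-operated hearts, 4878 of 15077 genes (32.4%) passed the same test between the infarct position and the septum, 2403 higher and 2475 lower. These differences were smaller, with a median size of 0.36 among the called genes and 169 genes beyond 1 on the log2 scale. Without the heart as a block the sham count was 1081. Sham heart 5 stood apart from the other sham hearts. Its 10 highest genes took 6.32% of gene-assigned counts at the infarct position, against 9.74 to 10.81% in the others. In the septum they took 6.33%, against 9.42 to 10.09%. Without sham heart 5 the sham count was 4075. Of the genes called in MI hearts, 2223 were also called in sham hearts (38.4% of the MI calls and 45.6% of the sham calls), 1582 in the same direction and 641 in opposite directions. The difference between the 2 contrasts was therefore tested directly as an interaction. Counts for sham hearts and for the interaction are given with most of the lists below. Each list count is to be set against the share over all tested genes. These shares were 18.3% higher and 18.1% lower in MI hearts, 15.9% and 16.4% in sham hearts, and 13.6% and 15.3% in the interaction.

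Among called genes with a mean log2 CPM of 1 or more whose zones were fully apart, the 10 largest rises included matrix and collagen-receptor genes; called genes with overlapping zones, such as Spp1 below, rose by more. Throughout, the 3 values given for a gene in a zone are the lowest, the median and the highest of its 6 libraries. A log2 fold change is given ± an approximate standard error, its size divided by the square root of the test's F statistic. Comp, a matrix protein that binds collagen fibres, had 4.69, 10.5 and 24.1 CPM in the infarct zone and 0.228, 2.38 and 4.24 CPM in the remote zone (log2 fold change 2.19 ± 0.59, adjusted p = 0.0224). Every infarct library was above every remote library, as the choice required, and the remote library of heart 2 was far below the other 5. Prrx2, a homeobox factor of mesenchymal cells, had 13.2, 23.6 and 32.1 CPM in the infarct zone and 2.05, 6.23 and 12.6 CPM in the remote zone (log2 fold change 1.97 ± 0.31, adjusted p = 0.00874). Gp6, the platelet collagen receptor, had 10.3, 14.2 and 30.7 CPM in the infarct zone and 2.12, 4.78 and 7.5 CPM in the remote zone (log2 fold change 1.91 ± 0.34, adjusted p = 0.00935). The zones were apart for both genes, as the choice of these genes required. Adamts16, a secreted metalloprotease, had 4.84, 9.71 and 14.4 CPM in the infarct zone and 0.0759, 2.31 and 4.72 CPM in the remote zone (log2 fold change 1.95 ± 0.52, adjusted p = 0.0216). Oscar, a collagen receptor of myeloid cells, had 4.44, 6.26 and 21.9 CPM in the infarct zone and 1.14, 2.15 and 3.56 CPM in the remote zone (log2 fold change 1.76 ± 0.47, adjusted p = 0.022). The other 5 of these 10 were Tmem178a, Dennd2d, Lst1, Ppm1n and Angptl7, with log2 fold changes between 1.77 and 2.19.

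By the same limits on level and overlap, the 10 largest falls included receptors and an energy sensor of heart muscle; called genes with overlapping zones, such as Il1a and Dhrs7c below, fell by more. Prkaa2, a catalytic subunit of the energy sensor AMPK, had 26.6, 70.7 and 221 CPM in the infarct zone and 259, 316 and 363 CPM in the remote zone (log2 fold change -2.13 ± 0.42, adjusted p = 0.01). Erbb4, the neuregulin receptor of cardiomyocytes, had 0.929, 3.77 and 9.95 CPM in the infarct zone and 11.7, 14.4 and 17.7 CPM in the remote zone (log2 fold change -2.05 ± 0.49, adjusted p = 0.0162). Both ranges were apart, as the choice required, and the infarct libraries themselves spread widely. Chrm2, the muscarinic receptor through which the vagus slows the heart, had 12.8, 27.9 and 87.4 CPM in the infarct zone and 88.8, 132 and 151 CPM in the remote zone (log2 fold change -1.99 ± 0.37, adjusted p = 0.00943). Kcnj3, a subunit of the potassium channel that this receptor opens, had 1.84, 4.98 and 13.8 CPM in the infarct zone and 13.9, 21.5 and 25.4 CPM in the remote zone (log2 fold change -2.01 ± 0.41, adjusted p = 0.0105). Receptor and channel were both lower in 6 of 6 hearts with ranges apart, as the choice of these genes required. Gzmc, a granzyme of cytotoxic lymphocytes, had 0.52, 2.58 and 5.44 CPM in the infarct zone and 6.63, 9.28 and 16.4 CPM in the remote zone (log2 fold change -2.16 ± 0.37, adjusted p = 0.00889), and in sham hearts it was higher at the infarct position (0.53 ± 0.11, adjusted p = 0.00227). Wnk2, Rab3b and Veph1 had log2 fold changes of -2.38, -2.22 and -2.03. Trnr and Trnp, which carry the symbols of transfer RNA genes, fell too (-2.43 and -2.28), in libraries made from poly(A) RNA.

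**Figure D2:**
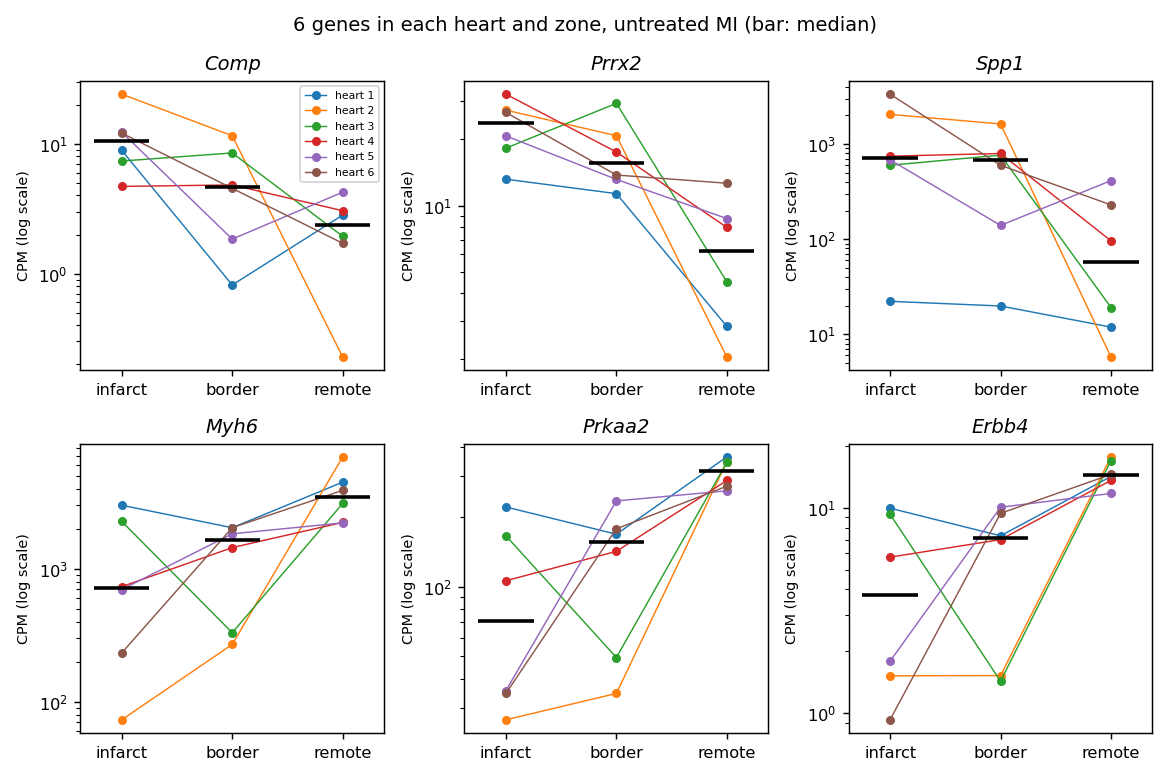
CPM on a log scale of 6 genes in the infarct, border and remote library of each of 6 MI hearts; lines join the zones of a heart and black bars mark the medians. Comp, Prrx2 and Spp1 stood higher in the infarct zone of each heart and Myh6, Prkaa2 and Erbb4 lower, and heart 1 had the lowest infarct value of Spp1.

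Cardiomyocyte genes were lower in the infarct zone. Of 18 listed marker genes tested, 15 fell and none rose, with a median log2 fold change of -1.69 against 0.03 over all tested genes. In bulk tissue, fewer cardiomyocytes and less RNA per cardiomyocyte cannot be told apart. Actn2, which cross-links actin at the Z-disc, had 112, 283 and 671 CPM in the infarct zone and 756, 989 and 1398 CPM in the remote zone (log2 fold change -1.86 ± 0.42, adjusted p = 0.0136). Tnnt2, the troponin that anchors the complex to tropomyosin, had 596, 1908 and 5538 CPM in the infarct zone and 4446, 5379.9 and 6165 CPM in the remote zone (log2 fold change -1.61 ± 0.49, adjusted p = 0.0332). Mb, the oxygen store myoglobin, had 587, 2843 and 13705 CPM in the infarct zone and 7269, 11147 and 13630.2 CPM in the remote zone (log2 fold change -1.85 ± 0.60, adjusted p = 0.0411). The zones were apart for Actn2 and overlapped for Tnnt2 and Mb, since the highest infarct library reached the remote range. Myh6, the fast heavy chain of the adult rat ventricle, had 73.3, 716 and 2997 CPM in the infarct zone and 2209, 3484 and 6919 CPM in the remote zone and did not pass the test (log2 fold change -2.24 ± 0.82, adjusted p = 0.0623), although it was lower in 6 of 6 hearts. The count of 15 became 16 without heart 1 and 5, 7 and 4 without hearts 4, 5 and 6, and it was 7 without the replicate block. In sham hearts the list had 4 higher and 9 lower of 18 at the infarct position (median -0.22), and the interaction was 0 higher and 10 lower of 18.

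Contractile and electrical genes went the same way. Of 24 sarcomere genes 18 fell, of 15 calcium-handling genes 14, of 22 ion channel and intercalated disc genes 20, and of 17 cardiac transcription factors 13, and no member of the 4 lists rose. Their median log2 fold changes were -1.57, -1.53, -1.43 and -1.14. Actc1, cardiac actin, had 600.5, 1807 and 5279 CPM in the infarct zone and 4786, 6969 and 9667 CPM in the remote zone (log2 fold change -2.02 ± 0.45, adjusted p = 0.0136). Ttn, the spring protein titin, had 396, 1333 and 2116 CPM in the infarct zone and 2128, 3177 and 4583 CPM in the remote zone (log2 fold change -1.58 ± 0.43, adjusted p = 0.0233). Myh7, the slow heavy chain, had 678, 1775 and 2870.1 CPM in the infarct zone and 1343, 1864 and 4123 CPM in the remote zone and did not pass (log2 fold change -0.49 ± 0.37, adjusted p = 0.324). The ranges of Ttn were apart and those of Actc1 overlapped. Atp2a2, the pump that returns calcium to the sarcoplasmic reticulum, had 422, 1203 and 3679 CPM in the infarct zone and 3250.2, 4119 and 6589 CPM in the remote zone (log2 fold change -1.84 ± 0.50, adjusted p = 0.0239). Pln, the inhibitor of that pump, had 327, 970.4 and 3225 CPM in the infarct zone and 2690.5, 3804 and 4795 CPM in the remote zone (log2 fold change -1.89 ± 0.44, adjusted p = 0.015). Ryr2, the release channel, fell as well (log2 fold change -1.67 ± 0.44, adjusted p = 0.0217). Without heart 6 the falls counted 6 of the sarcomere genes, 8 of the calcium genes, 13 of the channel genes and 10 of the factors, and without heart 4 they counted 5, 11, 14 and 11. Without heart 5 the sarcomere falls counted 8. In sham hearts the sarcomere list had 2 higher and 15 lower of 24 and the calcium list 2 higher and 10 lower of 15 at the infarct position, with interactions of 0 higher and 12 lower of 24 and 0 higher and 7 lower of 16.

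Among the channels and junctions, Gja1, the gap junction protein connexin 43, had 146, 196 and 376 CPM in the infarct zone and 369, 463 and 657 CPM in the remote zone (log2 fold change -1.11 ± 0.21, adjusted p = 0.0096). Kcnj2, which sets the resting potential, had 22.7, 28.2 and 49.4 CPM in the infarct zone and 40.9, 55.9 and 70.5 CPM in the remote zone (log2 fold change -0.87 ± 0.17, adjusted p = 0.01). The ranges of both genes overlapped, and each was lower in 6 of 6 hearts. Tbx5, a transcription factor of the chambers and conduction system, had 4.6, 5.78 and 16.3 CPM in the infarct zone and 17.9, 25.2 and 29.7 CPM in the remote zone (log2 fold change -1.80 ± 0.22, adjusted p = 0.00872). Gata4, a factor also expressed in cardiac fibroblasts, had 45.9, 61.4 and 86.9 CPM in the infarct zone and 89.1, 92.2 and 124 CPM in the remote zone (log2 fold change -0.75 ± 0.16, adjusted p = 0.0124). Both were apart between zones, and Gata4 had the smaller log2 fold change. Sham hearts also had 18 of the 22 channel genes and 13 of the 17 factors lower at the infarct position, with median log2 fold changes of -0.48 and -0.44. In the interaction, 7 of 22 channel genes and 6 of 17 factors fell further in MI hearts, and for Gata4 the MI and sham differences were not told apart (-0.053 ± 0.21, adjusted p = 0.877).

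Genes of the stretch response and fetal program, which stressed ventricular muscle switches on, fell in 10 of 15 cases and rose in none (median -0.98). The cardiomyocyte markers had a median of -1.69, and a level per cardiomyocyte cannot be read from bulk tissue. Nppb, the B-type natriuretic peptide, had 185, 317 and 734 CPM in the infarct zone and 325, 699 and 1043 CPM in the remote zone (log2 fold change -0.98 ± 0.30, adjusted p = 0.036). In sham hearts it was higher at the infarct position (0.52 ± 0.13, adjusted p = 0.00826), whereas the list had 1 higher and 8 lower of 15 there (median -0.44) and an interaction of 0 higher and 3 lower of 15. Nppa, the atrial natriuretic peptide, had 1282, 2978 and 6743 CPM in the infarct zone and 1519.7, 3687 and 11802 CPM in the remote zone and did not pass (log2 fold change -0.48 ± 0.41, adjusted p = 0.378). Ankrd1, a stretch-responsive muscle protein, had 1146, 2440.2 and 3068 CPM in the infarct zone and 1633, 3148 and 5058 CPM in the remote zone and did not pass either (log2 fold change -0.62 ± 0.32, adjusted p = 0.153). Acta1, skeletal actin that the fetal ventricle expresses, had 38.5, 179 and 409.7 CPM in the infarct zone and 244, 463 and 972 CPM in the remote zone (log2 fold change -1.70 ± 0.52, adjusted p = 0.0344). The 10 falls became 6, 2, 3 and 2 without hearts 2, 4, 5 and 6, and 4 without the replicate block.

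Promoters of this list are shown because serum response factor, a regulator of muscle genes, binds the CArG box. Of 18 listed genes 15 had a window in the RefSeq promoter table (GRCr8), and 3 of these (20%) held a CArG box on either strand in the 250 bases before the start, against 1.51% of 27457 windows with 1 window a gene. The sarcomere list had a similar share, 3 of 18 windows (16.7%). The box was held by 1.55% of windows of genes called higher in the infarct zone and 1.43% of those called lower. The matches are descriptions of the letters and not shown sites of binding. The windows lie at chr19:68784195-68784444 (minus strand), chrX:139638246-139638495 (plus strand) and chr9:52954541-52954790 (minus strand), each written 5′ to 3′ along its gene with the CArG box in capitals.
Acta1: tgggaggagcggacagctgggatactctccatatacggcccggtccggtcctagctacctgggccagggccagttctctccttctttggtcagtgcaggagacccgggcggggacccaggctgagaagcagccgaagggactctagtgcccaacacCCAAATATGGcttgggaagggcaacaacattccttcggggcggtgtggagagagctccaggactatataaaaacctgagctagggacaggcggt
Fhl1: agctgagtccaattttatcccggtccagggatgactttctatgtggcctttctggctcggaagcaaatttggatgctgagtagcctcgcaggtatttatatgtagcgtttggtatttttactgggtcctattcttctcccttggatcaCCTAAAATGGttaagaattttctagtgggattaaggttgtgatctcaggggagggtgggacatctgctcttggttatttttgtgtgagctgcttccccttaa
Fhl2: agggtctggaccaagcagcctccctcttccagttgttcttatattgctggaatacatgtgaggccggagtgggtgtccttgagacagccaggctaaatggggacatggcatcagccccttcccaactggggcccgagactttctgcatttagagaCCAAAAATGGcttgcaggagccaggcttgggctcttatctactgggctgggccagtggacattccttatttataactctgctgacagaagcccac
The genes Fhl1 and Fhl2 were chosen after their promoters were seen. Acta1 fell as given above, Fhl1 fell (log2 fold change -0.49 ± 0.13, adjusted p = 0.0221), and Fhl2, a partner of titin, fell too (log2 fold change -1.50 ± 0.41, adjusted p = 0.0235).

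Mitochondrial energy genes were lower in the infarct zone across pathways. All 24 genes of the TCA cycle fell (median -1.24), as did 44 of 51 genes of oxidative phosphorylation (median -1.24) and 23 of 27 genes of fatty acid oxidation (median -1.23). One fatty acid gene rose, the transporter Slc27a6 (log2 fold change 1.31 ± 0.38, adjusted p = 0.0285). Cpt1b, which admits long-chain fatty acids to the mitochondrion, had 24.2, 74 and 237 CPM in the infarct zone and 213, 225 and 392 CPM in the remote zone (log2 fold change -1.82 ± 0.48, adjusted p = 0.0221). Ogdh, a TCA cycle enzyme, had 180.5, 248 and 499 CPM in the infarct zone and 521, 589 and 857 CPM in the remote zone (log2 fold change -1.18 ± 0.24, adjusted p = 0.0105). Ndufs1, the largest core subunit of complex I, had 86.7, 208 and 498 CPM in the infarct zone and 465, 621 and 801 CPM in the remote zone (log2 fold change -1.53 ± 0.40, adjusted p = 0.02). The zones were apart for Ogdh, and for Cpt1b and Ndufs1 the highest infarct library entered the remote range. Atp5f1b, a catalytic subunit of ATP synthase, did not pass (log2 fold change -1.22 ± 0.42, adjusted p = 0.051). The factor Ppargc1a, a coactivator of mitochondrial biogenesis, had 3.12, 14.8 and 68.1 CPM in the infarct zone and 49.3, 69.5 and 100.2 CPM in the remote zone (log2 fold change -2.12 ± 0.48, adjusted p = 0.0139). Without heart 6 the falls counted 11 TCA genes, 20 oxidative phosphorylation genes and 8 fatty acid genes, and without heart 4 they counted 14, 25 and 12. Without heart 5 the counts were 15, 29 and 15, and without the replicate block 22, 25 and 13. In heart 1 the mean oxidative phosphorylation level on the log2(CPM + 0.1) scale was 9.02 in both zones. In each other heart it was lower in the infarct zone. Here too, fewer cardiomyocytes and less RNA per cardiomyocyte cannot be told apart.

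Oxidative phosphorylation genes had opposite directions in MI and sham hearts. In sham hearts 31 of the same 51 genes were higher at the infarct position and 1 was lower (median 0.36). The interaction was lower in MI hearts for 48 of 51 genes, with a median of -1.65, against a background of 15.3% of 16445 genes lower and 13.6% higher. Cox7b, a small subunit of cytochrome oxidase, had 18.7, 57.4 and 251 CPM in the infarct zone and 123, 188 and 239 CPM in the remote zone in MI hearts (log2 fold change -1.63 ± 0.38, adjusted p = 0.0153). In sham hearts it had 185, 368 and 468 CPM at the infarct position and 76.4, 113 and 175 CPM in the septum (1.51 ± 0.11, adjusted p = 2.85e-07). The interaction was -3.12 ± 0.43, adjusted p = 0.0007. Ndufa4 showed the same opposition, with -1.77 in MI and 0.87 in sham hearts (interaction -2.64 ± 0.43, adjusted p = 0.00142). The TCA cycle had 17 of 24 genes lower in the interaction while sham hearts had 5 of 24 higher and 7 lower. Fatty acid oxidation had 6 higher and 8 lower of 26 in sham hearts and an interaction of 0 higher and 19 lower of 27.

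**Figure D3:**
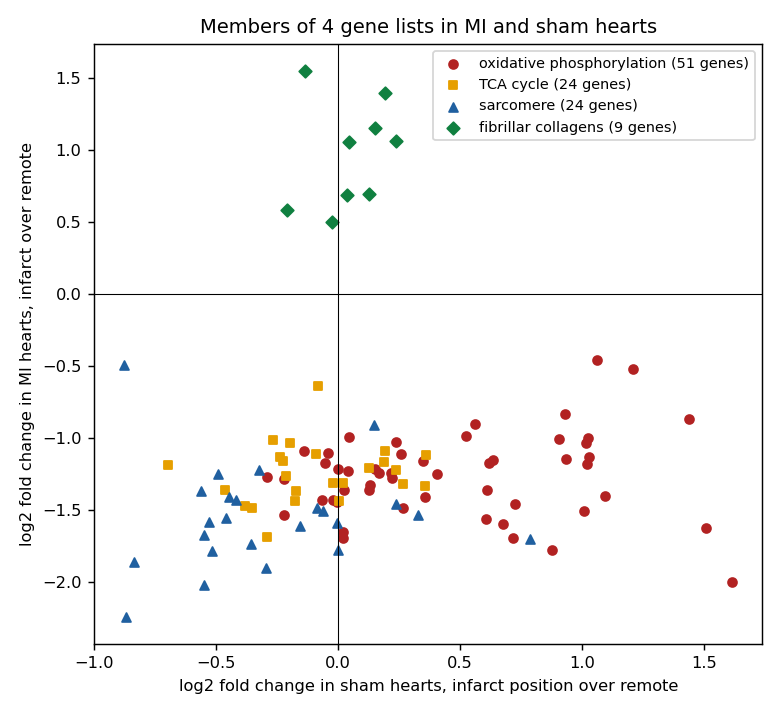
Log2 fold change of infarct over remote in MI hearts (vertical) against that at the same positions in sham hearts (horizontal), each point a gene of 4 lists. Most oxidative phosphorylation genes lie to the right of 0 and below 0, sarcomere genes mostly left of and below 0, and fibrillar collagens above 0 near the vertical line.

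Glucose metabolism was mixed. Of 27 genes of glycolysis and glucose uptake 11 fell, 2 rose and 14 did not pass (median -0.56). Hk1, the first enzyme of glucose use, had 86.5, 107 and 133 CPM in the infarct zone and 141, 157 and 194 CPM in the remote zone (log2 fold change -0.63 ± 0.13, adjusted p = 0.0108). Hk3, another hexokinase, had 6.24, 23.6 and 75.4 CPM in the infarct zone and 3.11, 5.14 and 11.1 CPM in the remote zone (log2 fold change 2.12 ± 0.46, adjusted p = 0.0126). The lactate exporter Slc16a3 rose (log2 fold change 1.19 ± 0.32, adjusted p = 0.0224), while the lactate importer Slc16a1 fell (log2 fold change -1.36 ± 0.30, adjusted p = 0.0128). The 2 hexokinases moved in opposite directions. The 2 lactate carriers were named after their values were seen. Pygm, muscle glycogen phosphorylase, fell (log2 fold change -2.06 ± 0.51, adjusted p = 0.0176). Among 17 hypoxia-response genes 5 rose and 6 fell: Hmox1, which degrades heme, had log2 fold change 1.69 ± 0.41, adjusted p = 0.017, and Egln3, an oxygen-sensing prolyl hydroxylase, had log2 fold change -1.72 ± 0.33, adjusted p = 0.0095. The glycolysis falls became 6, 7 and 3 without hearts 4, 5 and 6, the hypoxia rises 2, 2 and 1, and the hypoxia falls 3 without heart 4 or 6. The 2 glycolysis rises became 4 without heart 1 and 1 without heart 4 or 6. In sham hearts glycolysis had 1 higher and 16 lower of 26 and hypoxia 2 higher and 5 lower of 16 at the infarct position, with interactions of 6 higher and 4 lower of 27 and 3 higher and 4 lower of 17.

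Many matrix genes were higher in the infarct zone. Among 26 other collagens, beyond the fibrillar chains, 10 rose, none fell and 16 did not pass (median 0.45). Of 10 fibrillar collagen genes 8 rose and none fell (median 1.06), of 27 collagen-processing genes 23 rose and 1 fell (median 0.72), of 23 matricellular genes 20 rose and none fell (median 1.11) and of 16 elastic fibre genes 12 rose and none fell (median 0.68). Col1a1, the main chain of scar collagen, had 2725, 8727 and 11054 CPM in the infarct zone and 944, 2816 and 5284 CPM in the remote zone (log2 fold change 1.55 ± 0.28, adjusted p = 0.00936). Col3a1, which forms finer fibrils, had 6162, 13703 and 17787 CPM in the infarct zone and 2704, 6976 and 11229.6 CPM in the remote zone (log2 fold change 1.06 ± 0.30, adjusted p = 0.0252). Col11a1, a chain that nucleates fibrils, had 10.7, 81.7 and 122 CPM in the infarct zone and 0.303, 12.5 and 51.6 CPM in the remote zone (log2 fold change 2.54 ± 0.69, adjusted p = 0.0235). All 3 were higher in 6 of 6 hearts, and their ranges overlapped. Serpinh1, the collagen chaperone, had 932, 1441 and 1672 CPM in the infarct zone and 500.4, 705 and 984 CPM in the remote zone (log2 fold change 0.96 ± 0.16, adjusted p = 0.0088). P4ha3, a prolyl hydroxylase of collagen, had 7.67, 35.7 and 52.8 CPM in the infarct zone and 0.683, 5.25 and 22.6 CPM in the remote zone (log2 fold change 2.48 ± 0.51, adjusted p = 0.0107). Eln, elastin, had 462, 1989.6 and 4062 CPM in the infarct zone and 303, 494 and 933 CPM in the remote zone (log2 fold change 1.68 ± 0.28, adjusted p = 0.00874). P3h2, another collagen hydroxylase, was the member that fell (log2 fold change -0.55 ± 0.16, adjusted p = 0.0303). The matricellular count became 12 without heart 3, 4 or 6, and also without the replicate block.

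Of the matricellular genes, Spp1, osteopontin, had 22.2, 714 and 3343 CPM in the infarct zone and 5.77, 57.6 and 413 CPM in the remote zone (log2 fold change 3.40 ± 1.02, adjusted p = 0.0323). The infarct library of heart 1 held the lowest value, and the other 5 were above all remote libraries. Postn, periostin of activated fibroblasts, had 774, 1983 and 2470.1 CPM in the infarct zone and 171, 939 and 1614 CPM in the remote zone (log2 fold change 1.38 ± 0.40, adjusted p = 0.0287). Tnc, tenascin C, had 115, 187 and 424 CPM in the infarct zone and 14.4, 88.2 and 116 CPM in the remote zone (log2 fold change 1.77 ± 0.38, adjusted p = 0.012). Sparc, a collagen-binding protein, had 5079, 8409 and 9487 CPM in the infarct zone and 3087, 4795 and 6792 CPM in the remote zone (log2 fold change 0.76 ± 0.23, adjusted p = 0.0316). These genes lost their calls in part: Spp1 without heart 3, 4 or 6, Postn without heart 1, 3 or 4, and Sparc without any heart other than heart 2. Among proteoglycans and provisional matrix, 10 of 27 rose and 1 fell, with Fn1, fibronectin, at 1077, 2247 and 3839.6 CPM in the infarct zone and 323, 1073 and 1293 CPM in the remote zone (log2 fold change 1.42 ± 0.26, adjusted p = 0.00935) and Dcn, decorin, not passing (log2 fold change -0.015 ± 0.16, adjusted p = 0.948). Mmp12, the macrophage elastase, had 3.81, 143 and 475 CPM in the infarct zone and 2.44, 12 and 48 CPM in the remote zone (log2 fold change 3.29 ± 0.81, adjusted p = 0.0176). Timp4, an inhibitor of matrix proteases, fell (log2 fold change -1.16 ± 0.38, adjusted p = 0.042), and in all 15 of 31 proteases and inhibitors rose and 2 fell. The proteoglycan rises became 6, 6, 6, 5 and 4 without hearts 1, 2, 4, 5 and 6, and 6 without the replicate block. The 2 protease and inhibitor falls became 0 without heart 2, 4 or 6 and without the replicate block, and 1 without heart 3 or 5. In sham hearts the proteoglycans had 6 higher and 2 lower of 26 and the proteases and inhibitors 4 higher and 5 lower of 28 at the infarct position, with interactions of 6 higher and 2 lower of 27 and 9 higher and 1 lower of 31.

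The interaction with position was also higher in MI hearts for these lists. It passed for 8 of 10 fibrillar collagen genes, 21 of 27 collagen-processing genes, 10 of 23 matricellular genes and 9 of 16 elastic fibre genes, and for none in the lower direction. Among 26 other collagens it was higher for 12 and lower for 1, and sham hearts had 1 higher and 2 lower of 24. Of the fibrillar collagens tested in sham hearts, 1 of 9 was higher at the infarct position. Col1a1 had -0.14 ± 0.08 in sham hearts and an interaction of 1.70 ± 0.28, adjusted p = 0.00153. Eln had 0.28 ± 0.07 in sham hearts and an interaction of 1.41 ± 0.28, adjusted p = 0.00359.

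**Figure D4:**
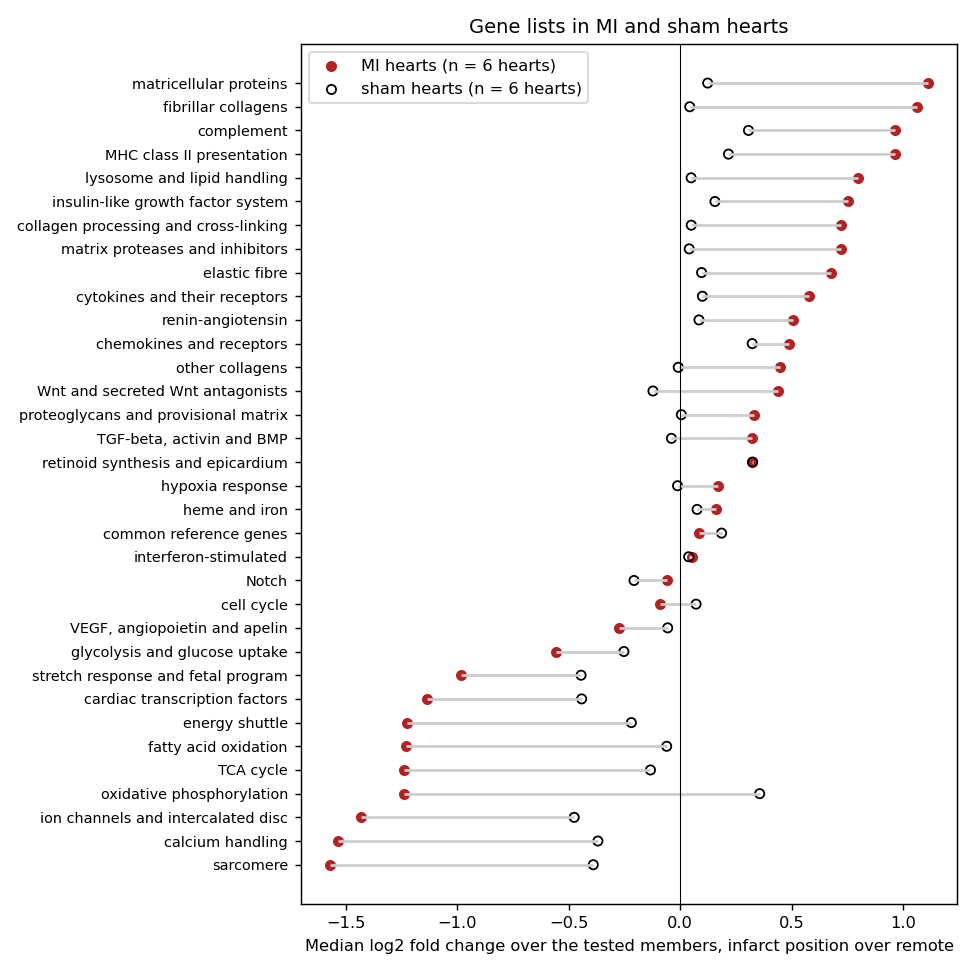
Median log2 fold change over the tested members of 34 process lists, infarct position over remote, in MI hearts (red) and sham hearts (open circles). Matricellular proteins and fibrillar collagens have the highest MI medians, sarcomere and calcium handling the lowest, and oxidative phosphorylation lies on opposite sides of 0 in the 2 groups.

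Fibroblast states differed by marker. Of 14 myofibroblast genes 9 rose (median 1.12), of 7 genes of matrifibrocytes, the fibroblasts of mature scar, 4 rose, and of 12 genes of quiescent fibroblasts 5 rose, none falling in the 3 lists. Acta2, smooth muscle actin, had 84.6, 384 and 642 CPM in the infarct zone and 57.2, 114 and 156 CPM in the remote zone (log2 fold change 1.72 ± 0.29, adjusted p = 0.00889). Tagln, transgelin, had 106, 488 and 888 CPM in the infarct zone and 43.8, 116 and 201 CPM in the remote zone (log2 fold change 2.15 ± 0.32, adjusted p = 0.00872). Cthrc1, a marker of activated fibroblasts, had 66.2, 215 and 355 CPM in the infarct zone and 4.1, 59.4 and 165 CPM in the remote zone (log2 fold change 2.02 ± 0.55, adjusted p = 0.0233). The ranges of these genes overlapped, and heart 1 had the lowest infarct value of each. Acta2, Tagln and Cnn1 are also genes of vascular smooth muscle: Myh11, a heavy chain of that lineage, had 32.8, 79.7 and 165 CPM in the infarct zone and 22.4, 30.8 and 41.8 CPM in the remote zone (log2 fold change 1.33 ± 0.18, adjusted p = 0.00872), while Rgs5, a pericyte gene, fell (log2 fold change -0.53 ± 0.15, adjusted p = 0.0252). Tcf21, a factor of resident fibroblasts, had 32.6, 41.3 and 47.8 CPM in the infarct zone and 22.5, 33.7 and 45 CPM in the remote zone and did not pass (log2 fold change 0.33 ± 0.12, adjusted p = 0.0572). In sham hearts Acta2 and Myh11 were lower at the infarct position (-0.47 ± 0.11, adjusted p = 0.00553 for Acta2 and -0.62 ± 0.14, adjusted p = 0.00411 for Myh11). Of 12 mural genes, of smooth muscle and pericytes, 5 rose, 3 fell and 4 did not pass (median 0.13). The 3 falls became 2 without heart 1, 2, 3 or 5 and 0 without heart 4 or 6. In sham hearts the mural list had 0 higher and 6 lower of 11, and its interaction was 5 higher and 0 lower of 12. At the infarct position of sham hearts the quiescent list had 7 higher and 0 lower of 12 (median 0.39, against 0.36 in MI hearts), the myofibroblast list 1 higher and 4 lower of 14 and the matrifibrocyte list 0 higher and 0 lower of 5. The interactions were 0 higher and 3 lower of 12, 9 higher and 0 lower of 14 and 1 higher and 0 lower of 7. Without the replicate block 4 myofibroblast and 2 quiescent genes rose, without heart 1 there were 2 quiescent falls, the quiescent count became 1, 3, 0 and 1 without hearts 1, 3, 4 and 5, and the matrifibrocyte count became 2 without heart 3, 5 or 6.

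Growth factor genes moved in both directions. Of 31 genes of the TGF-beta, activin and BMP list 10 rose and 2 fell. Tgfb1, the ligand, had 53.9, 90.6 and 123 CPM in the infarct zone and 49.8, 64.1 and 87.8 CPM in the remote zone and did not pass (log2 fold change 0.39 ± 0.15, adjusted p = 0.0754). Tgfbr1, its receptor, had 67.4, 166 and 291 CPM in the infarct zone and 61.2, 90.9 and 125 CPM in the remote zone (log2 fold change 0.91 ± 0.21, adjusted p = 0.0152). Grem1, a BMP antagonist, had 1.69, 8.03 and 17.2 CPM in the infarct zone and 0.687, 0.938 and 2.59 CPM in the remote zone (log2 fold change 2.73 ± 0.36, adjusted p = 0.00872). Receptor and antagonist rose while the ligand did not pass. Ltbp2, a latent TGF-beta binding family member of elastic fibres, had 78.5, 699 and 773 CPM in the infarct zone and 38.2, 161 and 405 CPM in the remote zone (log2 fold change 1.70 ± 0.32, adjusted p = 0.00948). Of 23 Wnt genes 6 rose and none fell; Sfrp2 had log2 fold change 1.45 ± 0.39, adjusted p = 0.0223 and Frzb, another secreted antagonist, log2 fold change 2.02 ± 0.42, adjusted p = 0.011. Of 14 genes of the insulin-like growth factor system 9 rose and 1 fell; Igf1 had 255, 504 and 701 CPM in the infarct zone and 128, 304 and 348 CPM in the remote zone (log2 fold change 0.87 ± 0.28, adjusted p = 0.0413). Of 8 renin-angiotensin genes 4 rose and 2 fell; Ace, the converting enzyme, had 29.2, 47.6 and 56.9 CPM in the infarct zone and 21.1, 29.8 and 42.4 CPM in the remote zone (log2 fold change 0.51 ± 0.091, adjusted p = 0.00935) and Agtr1a, the angiotensin receptor, had log2 fold change 1.49 ± 0.38, adjusted p = 0.0188. Without heart 4 the rises counted 6 TGF-beta genes, 3 Wnt genes, 2 insulin-like growth factor genes and 1 renin-angiotensin gene, and without heart 6 the last 2 lists counted 5 and 1. Without heart 5 the insulin-like growth factor rises counted 5. The 2 TGF-beta falls became 0 without heart 4 and 1 without heart 2, 3, 5 or 6, and the 2 renin-angiotensin falls became 0 without heart 4 or 6 and 1 without heart 3 or 5. The insulin-like growth factor fall was called in the full set and without heart 1 only. In sham hearts the TGF-beta list had 5 higher and 5 lower of 28, the Wnt list 0 higher and 2 lower of 21, the insulin-like growth factor list 4 higher and 2 lower of 12 and the renin-angiotensin list 1 higher and 2 lower of 8 at the infarct position. The interactions were 10 higher and 1 lower of 31, 6 higher and 0 lower of 23, 5 higher and 0 lower of 14 and 1 higher and 1 lower of 9.

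Macrophage genes were higher. Of 13 pan-macrophage genes 11 rose and none fell (median 1.13), of 15 genes of recruited and lipid-associated macrophages 10 rose and 1 fell, and of 9 resident macrophage genes 5 rose. Csf1r, the receptor of the macrophage growth factor, had 159.6, 257 and 412 CPM in the infarct zone and 102, 156 and 193 CPM in the remote zone (log2 fold change 0.88 ± 0.22, adjusted p = 0.0183). C1qa, a chain of complement C1q made by macrophages, had 249, 297 and 414 CPM in the infarct zone and 93.1, 138 and 194 CPM in the remote zone (log2 fold change 1.10 ± 0.20, adjusted p = 0.00938). Trem2, a lipid-sensing receptor, had 28.8, 110.5 and 239.5 CPM in the infarct zone and 9.94, 26.7 and 61.7 CPM in the remote zone (log2 fold change 2.02 ± 0.41, adjusted p = 0.0108). The zones were apart for C1qa. Gpnmb, a glycoprotein of lipid-laden macrophages, had 100.2, 1199.8 and 3623 CPM in the infarct zone and 47.9, 147 and 484 CPM in the remote zone (log2 fold change 2.64 ± 0.68, adjusted p = 0.0197). Lpl, the lipase counted in the recruited list, which cardiomyocytes also express, was the member that fell (log2 fold change -1.56 ± 0.31, adjusted p = 0.0104). Sham hearts had 11 of 13 pan-macrophage genes higher at the infarct position as well (median 0.47), and the interaction passed for 3 of 13. The recruited list had 6 higher and 1 lower of 15 and the resident list 5 higher and 0 lower of 9 in sham hearts, with interactions of 5 higher and 1 lower of 15 and 2 higher and 0 lower of 9. The recruited count became 3 without heart 6 and 5 without heart 4, and the pan-macrophage count 7 without heart 6. The resident count became 1 without heart 4 or 6 and 3 without heart 5.

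**Figure D5:**
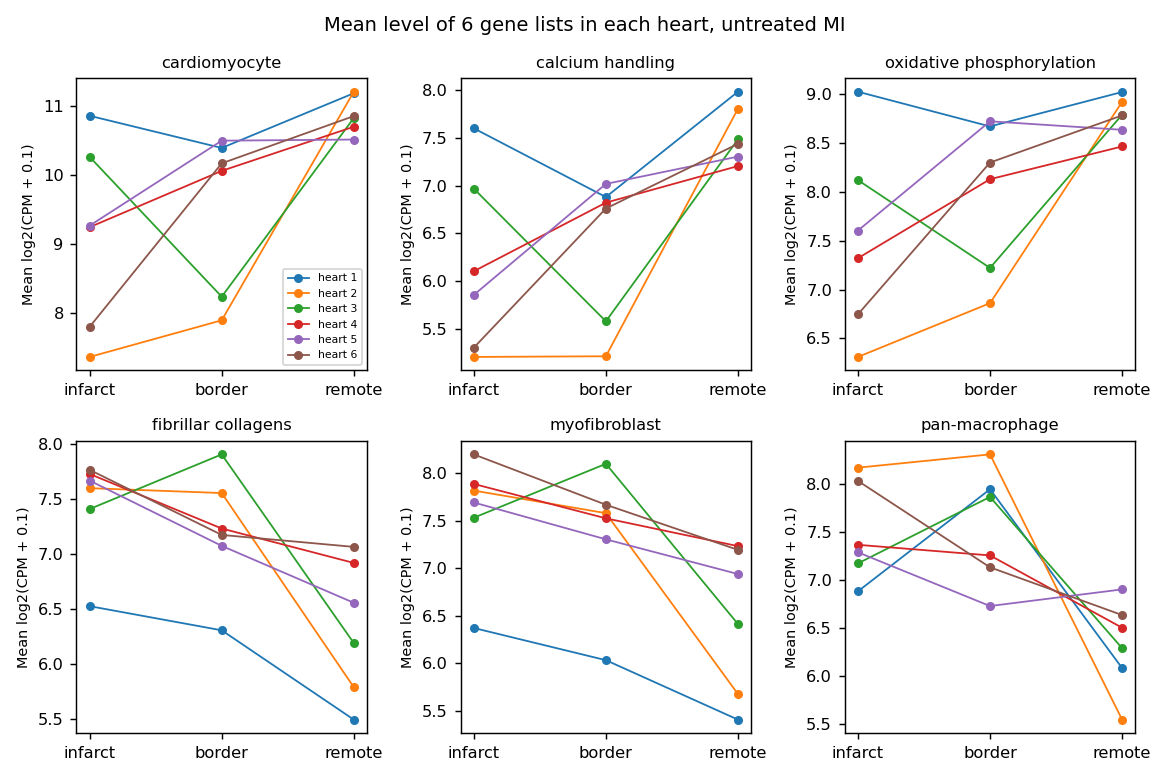
Mean log2(CPM + 0.1) over the genes of 6 lists in the infarct, border and remote library of each MI heart, with lines joining the zones of a heart. Heart 1 had 10.86 in its infarct and 11.19 in its remote library for cardiomyocyte genes, whereas hearts 2 and 6 had the lowest infarct levels of the 3 lists in the upper row.

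Lysosomal and complement genes were mostly higher. Of 24 lysosome and lipid-handling genes 18 rose and 1 fell (median 0.80), and the interaction passed upward for 17 and downward for 1, with 7 higher and 3 lower of 24 in sham hearts. Apoe, a lipid carrier, had 1196, 6286 and 15237 CPM in the infarct zone and 193, 928 and 3216 CPM in the remote zone (log2 fold change 2.58 ± 0.61, adjusted p = 0.0153). Npc2, which moves cholesterol out of lysosomes, had 201, 401 and 782 CPM in the infarct zone and 87.3, 145 and 289 CPM in the remote zone (log2 fold change 1.47 ± 0.29, adjusted p = 0.00995). Ctsk, a collagen-degrading protease, had 54.3, 139 and 190.4 CPM in the infarct zone and 26.3, 53.9 and 104 CPM in the remote zone (log2 fold change 1.26 ± 0.21, adjusted p = 0.00874). The ranges of all 3 overlapped. Cd36, a fatty acid receptor shared with muscle and endothelium, fell (log2 fold change -0.93 ± 0.22, adjusted p = 0.0166). Of 24 complement genes 14 rose and 2 fell; C2 had 116, 168 and 358 CPM in the infarct zone and 28, 62.9 and 83.5 CPM in the remote zone (log2 fold change 1.67 ± 0.34, adjusted p = 0.0108) and Masp1, of the lectin pathway, 29.7, 34.4 and 72.9 CPM in the infarct zone and 59.9, 88.3 and 129 CPM in the remote zone (log2 fold change -1.17 ± 0.11, adjusted p = 0.00872). The lysosome count became 11 without heart 4 and 9 without heart 6, and the complement count 7 and 6, with 1 complement fall in place of 2. Complement genes had 10 higher and 1 lower of 23 at the infarct position of sham hearts, and their interaction was 4 higher and 3 lower of 24.

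Of 13 genes of MHC class II presentation 10 rose and none fell (median 0.96), 7 passed upward in the interaction, and sham hearts had 5 higher and 0 lower of 13 at the infarct position. RT1-Ba, a class II alpha chain of the rat, had 122, 163 and 274 CPM in the infarct zone and 67, 86 and 113 CPM in the remote zone (log2 fold change 0.96 ± 0.17, adjusted p = 0.00923). RT1-Da, another alpha chain, had 200.3, 276 and 438 CPM in the infarct zone and 112, 157 and 225 CPM in the remote zone (log2 fold change 0.81 ± 0.20, adjusted p = 0.0185). Cd74, the invariant chain, did not pass (log2 fold change 0.30 ± 0.14, adjusted p = 0.13). Class II promoters carry a Y box that holds CCAAT, so that motif was searched on both strands. Of 11 listed genes with a window 8 (72.7%) held CCAAT, against 34.3% of all 27457 windows. The sarcomere list held it in 9 of 18 windows (50%). Genes called higher in the infarct zone held it in 33.5% of windows and genes called lower in 34.6%. The 2 alpha chains are shown, at chr20:4576807-4577056 (plus strand) and chr20:4515165-4515414 (plus strand) of GRCr8, with CCAAT or its reverse complement in capitals.
RT1-Ba: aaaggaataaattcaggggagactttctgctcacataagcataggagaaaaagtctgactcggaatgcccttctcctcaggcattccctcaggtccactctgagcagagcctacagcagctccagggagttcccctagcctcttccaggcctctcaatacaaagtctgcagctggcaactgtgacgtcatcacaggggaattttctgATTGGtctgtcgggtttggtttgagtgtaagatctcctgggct
RT1-Da: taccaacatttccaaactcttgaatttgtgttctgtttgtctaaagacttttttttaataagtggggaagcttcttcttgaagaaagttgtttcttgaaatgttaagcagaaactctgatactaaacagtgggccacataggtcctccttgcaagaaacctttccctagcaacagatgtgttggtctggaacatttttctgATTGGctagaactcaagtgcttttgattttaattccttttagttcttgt
Class II genes are close relatives of each other, so reads could be shared between them.

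Other leukocyte signals were low or mixed. Of 12 T and NK cell genes 6 rose in these athymic hosts; Cd3e, part of the T cell receptor complex, had 1.39, 3.04 and 4.88 CPM in the infarct zone and 0.799, 1.27 and 2.12 CPM in the remote zone (log2 fold change 1.09 ± 0.31, adjusted p = 0.0271) and kept its call without heart 6 only. Cd3d had 0.582, 1.59 and 1.88 CPM in the infarct zone and 0.184, 0.38 and 0.59 CPM in the remote zone (log2 fold change 1.95 ± 0.34, adjusted p = 0.00912). The list had counts of 2 without heart 1, 4 or 6 and 3 without heart 2. Of 6 neutrophil genes tested 1 rose, Csf3r (log2 fold change 1.14 ± 0.33, adjusted p = 0.0282), which did not pass without heart 2, 3, 4 or 6, and S100a8, an abundant neutrophil protein, had 1.53, 4.42 and 15.1 CPM in the infarct zone and 1.06, 4.68 and 14.2 CPM in the remote zone and did not pass (log2 fold change 0.22 ± 0.41, adjusted p = 0.697). Of 3 B and plasma cell genes none passed. Of 32 chemokine genes 8 rose and 2 fell; Cx3cr1, the fractalkine receptor of monocytes, had 8.57, 23.6 and 25.7 CPM in the infarct zone and 3.97, 11.1 and 16.3 CPM in the remote zone (log2 fold change 1.02 ± 0.18, adjusted p = 0.00923) and Ccl2 did not pass (log2 fold change 0.14 ± 0.15, adjusted p = 0.475). Cxcl11, an interferon-induced chemokine, fell (log2 fold change -1.72 ± 0.34, adjusted p = 0.0103). Of 30 cytokine genes 13 rose and 1 fell. The one that fell was Il1a, an alarmin, with 0.0877, 0.462 and 1.48 CPM in the infarct zone and 1.26, 2.65 and 15.3 CPM in the remote zone (log2 fold change -2.86 ± 0.33, adjusted p = 0.00872). Il1b, Tnf and Il6 did not pass (log2 fold changes -0.19, -0.10 and 0.27). Of 22 interferon-stimulated genes 4 rose and 1 fell, which is no more than the shares over all tested genes (18.3% higher and 18.1% lower). The chemokine rises became 4, 5 and 4 without hearts 2, 3 and 6, and the cytokine rises 8 and 6 without hearts 4 and 6. The 2 chemokine falls became 1 without heart 1, 4 or 6. In sham hearts T and NK cell genes had 4 higher and 0 lower of 9, chemokines 7 higher and 1 lower of 23 and cytokines 6 higher and 1 lower of 23 at the infarct position, with interactions of 2 higher and 1 lower of 12, 1 higher and 2 lower of 32 and 9 higher and 1 lower of 29. Interferon-stimulated genes had 5 higher and 0 lower of 22 in sham hearts and an interaction of 2 higher and 2 lower of 22.

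Vessel genes moved in both directions. Of 13 endothelial genes 5 fell and 1 rose, beside 18.1% of all tested genes lower and 18.3% higher. Kdr, the main VEGF receptor, had 53.4, 91.4 and 171 CPM in the infarct zone and 143, 172 and 280.1 CPM in the remote zone (log2 fold change -1.02 ± 0.25, adjusted p = 0.0164). Pecam1, an adhesion molecule of endothelium, had 172, 232 and 365 CPM in the infarct zone and 271, 384 and 484 CPM in the remote zone (log2 fold change -0.66 ± 0.18, adjusted p = 0.0221). Cldn5, a tight junction protein, had 53.3, 84.6 and 122 CPM in the infarct zone and 23.1, 46.8 and 73.5 CPM in the remote zone (log2 fold change 0.88 ± 0.11, adjusted p = 0.00872). Cldn5 was thus the endothelial member that rose. Of 22 genes of VEGF, angiopoietin and apelin signalling 8 fell and 5 rose: Vegfa fell (log2 fold change -0.84 ± 0.27, adjusted p = 0.0418), Angpt1, which stabilises vessels, fell (log2 fold change -1.11 ± 0.19, adjusted p = 0.0088) and Angpt2, its antagonist, rose (log2 fold change 0.75 ± 0.17, adjusted p = 0.0129). The Vegfa call was held without heart 2 only. Of 16 Notch genes 3 rose and 2 fell, and the median of the list, -0.06, turned positive without TMM factors. The Notch counts were near or below the shares over all tested genes. The endothelial falls became 1 without heart 4 or 6 and 3 without the replicate block, and the VEGF falls 5, 3 and 3 without hearts 3, 4 and 6. The VEGF rises became 3 without heart 4, and the Notch falls 1 without heart 4 or 6. In sham hearts the endothelial list had 5 higher and 3 lower of 13, the VEGF list 3 higher and 8 lower of 20 and the Notch list 1 higher and 5 lower of 16 at the infarct position, with interactions of 0 higher and 3 lower of 13, 4 higher and 3 lower of 21 and 2 higher and 2 lower of 16.

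Of 38 cell cycle genes 2 rose and 3 fell, and the median, -0.089, also changed sign without TMM factors. The members that rose were the inhibitors Cdkn2a (1.11, 2.91 and 6.13 CPM in the infarct zone and 0, 0.393 and 1.3 CPM in the remote zone; log2 fold change 2.71 ± 0.47, adjusted p = 0.00903) and Cdkn2b (log2 fold change 1.82 ± 0.34, adjusted p = 0.0094), the latter named after its values were seen. Ccnd2, a G1 cyclin, had 23.9, 56.4 and 80.2 CPM in the infarct zone and 84.7, 106 and 136 CPM in the remote zone (log2 fold change -1.17 ± 0.21, adjusted p = 0.00935), and Mki67, a proliferation marker, had 30, 60.8 and 76.6 CPM in the infarct zone and 50.1, 64.9 and 118 CPM in the remote zone and did not pass (log2 fold change -0.42 ± 0.19, adjusted p = 0.111). Without heart 6 the falls counted 8. Of 20 heme and iron genes 8 rose and 3 fell; Slc11a1, an iron and metal transporter of macrophages, had log2 fold change 1.71 ± 0.40, adjusted p = 0.0153, and Tfrc, the transferrin receptor, log2 fold change -1.50 ± 0.31, adjusted p = 0.0107. Of 16 genes of retinoid synthesis and the epicardium 4 rose and 2 fell; Aldh1a1, a retinoid enzyme, had log2 fold change -1.37 ± 0.32, adjusted p = 0.0154. Of 18 genes commonly used as references 5 rose and 5 fell: Gapdh had log2 fold change -0.91 ± 0.23, adjusted p = 0.0184, Gusb log2 fold change 1.36 ± 0.23, adjusted p = 0.00889 and B2m log2 fold change -0.012 ± 0.16, adjusted p = 0.959. Without heart 4 the reference genes had 1 rise and 2 falls and the retinoid list 1 rise, and without heart 6 the reference falls counted 2 and the retinoid rises 2. Without heart 5 the reference falls counted 3, and the retinoid rises counted 2 without heart 1 or 5. In sham hearts cell cycle genes had 2 higher and 2 lower of 36, heme and iron genes 3 higher and 1 lower of 19, retinoid genes 4 higher and 1 lower of 14 and reference genes 8 higher and 1 lower of 18 at the infarct position. The interactions were 1 higher and 4 lower of 38, 6 higher and 2 lower of 20, 0 higher and 2 lower of 17 and 1 higher and 3 lower of 18.

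Markers of other tissues were checked. Myh4 of skeletal muscle was at 0 in the 12 libraries, and Myh2 had 0, 0.331 and 0.92 CPM in the infarct zone and 0, 0 and 0.153 CPM in the remote zone. Tnnt3, a skeletal troponin, rose (log2 fold change 1.16 ± 0.23, adjusted p = 0.00983). The lung markers Sftpc and Sftpb reached no more than 1.27 and 0.529 CPM in an infarct library. Adipoq, made by fat cells, had 0, 0.232 and 34.4 CPM in the infarct zone and 0, 0.435 and 8.79 CPM in the remote zone; the highest value was in heart 4. Of 12 epicardial and mesothelial genes 2 rose, and Msln, a mesothelial antigen, had 96.3, 113 and 159 CPM in the infarct zone and 17.7, 42.8 and 128 CPM in the remote zone (log2 fold change 1.38 ± 0.43, adjusted p = 0.0367). Of 8 Schwann cell genes 3 rose, with Ngfr at log2 fold change 1.37 ± 0.25, adjusted p = 0.00935. The mesothelial count became 0 without heart 1, 2, 4 or 6, 1 without heart 5 and 4 without heart 3, and the Schwann count 1 without heart 4 or 6. The part of these tissues in the results was not tested.

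Across all genes, the infarct-minus-remote difference itself differed between MI and sham hearts for 4748 of 16445 genes (28.9%), 2232 higher and 2516 lower in MI. Of the 5784 genes called in MI hearts, 3194 (55.2%) also had a called interaction of the same sign. Podnl1, a small leucine-rich matrix protein, had 0.582, 9.81 and 13.6 CPM in the infarct zone and 0.125, 0.368 and 3.07 CPM in the remote zone (interaction 3.55 ± 1.09, adjusted p = 0.0298). Cnn1, calponin of smooth muscle, had 4.87, 19.4 and 38 CPM in the infarct zone and 1.53, 3.95 and 8.79 CPM in the remote zone (interaction 3.32 ± 0.82, adjusted p = 0.00985). Neither gene passed the filter on low counts in the sham test, so the size of their interaction depends on the prior count. Cox8b, a muscle subunit of cytochrome oxidase, had an interaction of -3.60 ± 0.75, adjusted p = 0.00428, and in MI hearts alone it had 16.7, 215 and 939.6 CPM in the infarct zone and 415, 663 and 1022 CPM in the remote zone and did not pass (adjusted p = 0.0555). Without the replicate block the interaction called 1431 genes, and without sham heart 5 it called 4101.

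For most called genes the border median over hearts lay between the medians of the other zones. For 4972 of the 5784 called genes (86.0%) the border median was between the infarct and remote medians, and for 781 (13.5%) it was at or past the infarct median. Myh6 had a border median of 1635 CPM, Col1a1 one of 5765 CPM and Spp1 one of 681 CPM. Border libraries of hearts 2 and 3 had the lowest mean cardiomyocyte levels of the 6, at 7.90 and 8.24. Single hearts did not all keep this order. In hearts 1 and 3 the cardiomyocyte level was lower in the border than in the infarct library (10.40 against 10.86 and 8.24 against 10.27). In the other hearts it was higher in the border library. The border library of heart 3 also held 210 CPM summed over the 6 lung markers, and that of heart 2 held 15.6 CPM. The highest sums were 11.5 CPM in an infarct library and 9.24 CPM in a remote library. The part of lung tissue in the border values was not tested. These values are descriptions, since the border zone was not tested.

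In the cell sheet group no gene passed for a difference in the infarct-minus-remote contrast from untreated MI (0 of 16902, edgeR's quasi-likelihood test, with 4190 genes at an unadjusted p under 0.05). DESeq2 called 1802 genes on the same libraries. Leaving out cell sheet replicate 1 gave 2011 calls with edgeR, and leaving out MI replicate 6 gave 3. A p that misses the threshold does not show that the 2 groups were alike.

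The spread between hearts was ranked only among genes with a mean log2 CPM of at least 5. Spp1, Mmp12, Myh6, Kcnip2 and Dhrs7c had the largest standard deviations over hearts of the log2 difference among them. Their standard deviations were 2.88, 2.35, 2.38, 2.24 and 2.19. Kcnip2, a subunit of the transient outward potassium channel, had 8.44, 88.8 and 388 CPM in the infarct zone and 252, 377 and 465 CPM in the remote zone and did not pass (log2 fold change -2.18 ± 0.79, adjusted p = 0.0599). Dhrs7c, an enzyme of the sarcoplasmic reticulum, had 2, 12.6 and 134 CPM in the infarct zone and 43.4, 112 and 163 CPM in the remote zone (log2 fold change -2.54 ± 0.76, adjusted p = 0.0326).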

How the data were processed

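RNA was measured in 12 libraries, the infarct and remote zone of 6 untreated MI hearts, with 12 sham and 12 cell sheet libraries and 6 MI border libraries for comparison. The authors deposited raw counts per gene, from poly(A) RNA sequenced in read pairs and aligned with STAR to the rat genome. The submitters' processing notes name mRatBN7.2 and DESeq2. The counting program and its use of strand are not given in the sources used here, so a gene and an overlapping or antisense gene cannot be told apart. The 5 summary lines of each table, 17.7 to 40.3% of the reads in the MI libraries, were left out, which left 40319 genes. Counts from 12963330 to 22459805 per MI library bound the precision by counting error.

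Genes kept by edgeR's filterByExpr were tested with TMM factors and edgeR's quasi-likelihood test (edgeR 4.0.16, limma 3.58.1, R 4.3.3), with the heart as a block and Benjamini-Hochberg adjustment at 0.05. Differences between treatments were tested as interactions. CPM used TMM factors, with an offset of 0.1 on the log2 scale. The labels call the replicate a technical replicate, while the methods describe zones of separate animals. If the labels hold, p-values measure only technical spread. The pairing comes from the heart number shared by both zones. Deviations of same-numbered libraries had correlations from -0.27 to 0.44, above 0.1 in 4 of 6 hearts. The same-numbered remote library had the highest correlation for 3 of 6 infarct libraries, so this check does not settle the pairing. No libraries agreed within sampling noise (chi-square per degree of freedom 16.49 or more). The test script was first checked on simulated data. There the difference set between zones was the same in every heart, so the check does not cover the spread between hearts seen here.

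The comparison and the 53 gene lists (935 distinct genes) were chosen with earlier results of these data known. Genes were named by rule: the 10 largest rises and 10 largest falls among called genes with a mean log2 CPM of 1 or more and infarct and remote values fully apart, the first 3 genes of each list and its largest called rise and fall, the 5 largest interactions with sham in each direction, and the 5 genes of mean log2 CPM of at least 5 that varied most between hearts. Alternatives were DESeq2 1.42.0, limma-voom, no TMM factors, no filter, at least 10 counts in every library, no block, thinned libraries, a log2 fold change above 1 and each heart left out. Promoter windows came from the RefSeq table of GRCr8. Some genes that the rule names are not reported here.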

Additional observations from a re-analysis of the deposited data

Results flagged for a closer look

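In groups of 6 libraries, a highest or lowest library was picked out where its gap to the nearest other library was more than 0.625 of the group's range (Dixon's test). This held in 16 of 176 tests, of which 15 are given here, and chance alone picks out about 1 in 20 groups. In the remote zone, heart 2 was low for Comp (0.228 CPM, against 1.71 to 4.24 in the other 5 hearts), Tmem178a (0.379 against 3.36 to 10.4) and Adamts16 (0.0759 against 2.13 to 4.72). In the infarct zone, heart 1 was low for Spp1 (22.2 CPM against 599 to 3343), Mmp12 (3.81 against 114 to 475) and Podnl1 (0.582 against 6.42 to 13.6).

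Among mean levels of lists on the log2 scale, the infarct library of heart 1 was low for myofibroblast genes (6.37, against 7.53 to 8.20), fibrillar collagens (6.53, against 7.41 to 7.77), other collagens (3.89, against 4.68 to 4.97) and proteoglycans and provisional matrix (4.74, against 5.18 to 5.43), and high for atrial cardiomyocyte genes (5.04, against 3.32 to 3.73). The infarct library of heart 4 was high for adipocyte genes (3.72, against -0.34 to 0.17). In the remote zone, heart 2 was low for T and NK cell genes (0.92, against 1.38 to 1.56) and high for lung genes (-1.19, against -2.23 to -1.89), and heart 5 was high for heme and iron genes (5.43, against 5.01 to 5.11).

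The difference between infarct and remote differed between MI and sham hearts, by the interaction term of edgeR's quasi-likelihood test, for 4748 genes. Among the genes with the largest such terms, MI minus sham on the log2 scale, were Adamts16 (4.58), Ca3 (4.32), Podnl1 (3.55) and Cnn1 (3.32) upward. The downward terms were those of Cox8b (-3.60), Cox7b (-3.12), Dhrs7c (-2.83), Ndufb1 (-2.81) and Cox7a2 (-2.72).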

How the results depend on the processing

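With the heart as a block, 5784 genes were called in MI hearts. Leaving out a heart gave 3236 (without heart 4) to 5928 (without heart 1) calls, 1664 to 2904 of them higher and 1568 to 3024 lower. Requiring a log2 fold change above 1 in size left 1958. Calls with DESeq2 (6803), limma-voom (5983), no filter (5344), at least 10 counts (5633) and thinned libraries (5686) stayed within 1.5 times of 5784. Without TMM factors 63.2% of calls were higher, against 50.3%, as the median over all genes went from 0.03 to 0.13.

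Without the replicate block (no pairing of zones), the counts were 5262 in MI hearts, 1081 in place of 4878 in sham hearts, 1431 in place of 4748 for MI against sham, and 0 for cell sheet against MI. Leaving out a heart gave 3866 to 4723 in sham hearts and 3654 to 5727 for MI against sham. Without TMM factors, MI against sham had 5400 calls, 62.5% of them higher, against 47.0%. For cell sheet against MI the count was 1802 with DESeq2 and ranged from 0 to 2011 with a heart left out (3 without MI heart 6, 2011 without cell sheet heart 1). The cause was not tested. No named gene reversed. Of 223 named genes, 31 lost their call without the block, as did 217 of 1335 pairs of gene and left-out heart.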
